A study of Sus scrofa with 20 samples.

Results

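Neuropeptide Y (NPY) is an amidated peptide that GABAergic interneurons of the amygdala release, and it acts on a family of receptors that couple to inhibitory G proteins. NPY1R, the receptor found mostly on the postsynaptic side, carries much of the anxiety-reducing action of NPY in the amygdala of rodents, where it counters corticotropin-releasing hormone. NPY2R sits mostly on nerve endings and restrains the release of NPY and of other transmitters, and NPY5R, which is often made by the same cells as NPY1R, is best known for its part in feeding. The members described here were all probe sets that the array annotation assigns to NPY, NPY1R, NPY2R or NPY5R, matched by symbol, so that no measured value entered the match. They were 4 genes with 5 probe sets, of 13755 annotated genes and 47845 probe sets on the array.

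The samples were amygdalae of 20 German Landrace pigs of slaughter age, each hybridised to 1 Affymetrix porcine Snowball array. Of these, 10 pigs had the high-reactive (HR) and 10 the low-reactive (LR) coping pattern, and the labels name no treatment. Per the study's methods, the pigs were extremes of early-life backtest behavior, in which a piglet is held on its back and its struggling is recorded, and were also chosen by their haplotypes at a locus on SSC12 linked to coping behavior, so coping pattern and haplotype cannot be told apart here. The comparison of HR with LR asks how the amygdala transcriptome differs between the coping groups. Values are log2 units of the robust multichip average (RMA) as deposited, so that a difference of 1 is a doubling, and differences are given as HR minus LR with the standard error (SE) of a limma fit and p-values adjusted by Benjamini-Hochberg over 23860 tested probe sets.

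Of the annotated markers of amygdala principal neurons, 7 of 7 passed the filter on low values. Of 5 annotated markers of the hypothalamus, a neighbouring region rich in NPY, AGRP and PMCH did not pass, while HCRT, OXT and AVP did. The filter was the median of probe set means (5.18), so passing it does not by itself show that a gene was expressed. Arrays differed in the mean of their 69 antigenomic background probe sets, which match no pig gene. It averaged 4.21 ± 0.13 (SD, n = 10) in HR, with a range of 3.98 to 4.37, and 4.08 ± 0.15 (SD, n = 10) in LR, with a range of 3.71 to 4.22. LR replicate 3 had the lowest background and stood apart from the other arrays, with a median correlation to them of 0.876 against at least 0.958 for every other array. Because the background moved with many genes, values with it as a covariate are given beside the result of each member.

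NPY1R was the member with the largest difference between the groups, with its mean in HR below that in LR, and this difference did not pass the test over all probe sets. Across all tested probe sets, 0.00838% passed an adjusted p of 0.05 and 26.3% had an unadjusted p under 0.05, with 14.0% lower in HR. Of the 4 member probe sets tested, 0 passed the adjusted threshold and 1, that of NPY1R, had an unadjusted p under 0.05, so the members as a set held about the share found over the whole array. The mean of the peptide in HR was above that in LR, and the means of NPY1R, NPY2R and NPY5R were below. In bulk tissue, fewer cells of a type and less RNA per cell cannot be told apart.

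**Figure D1:**
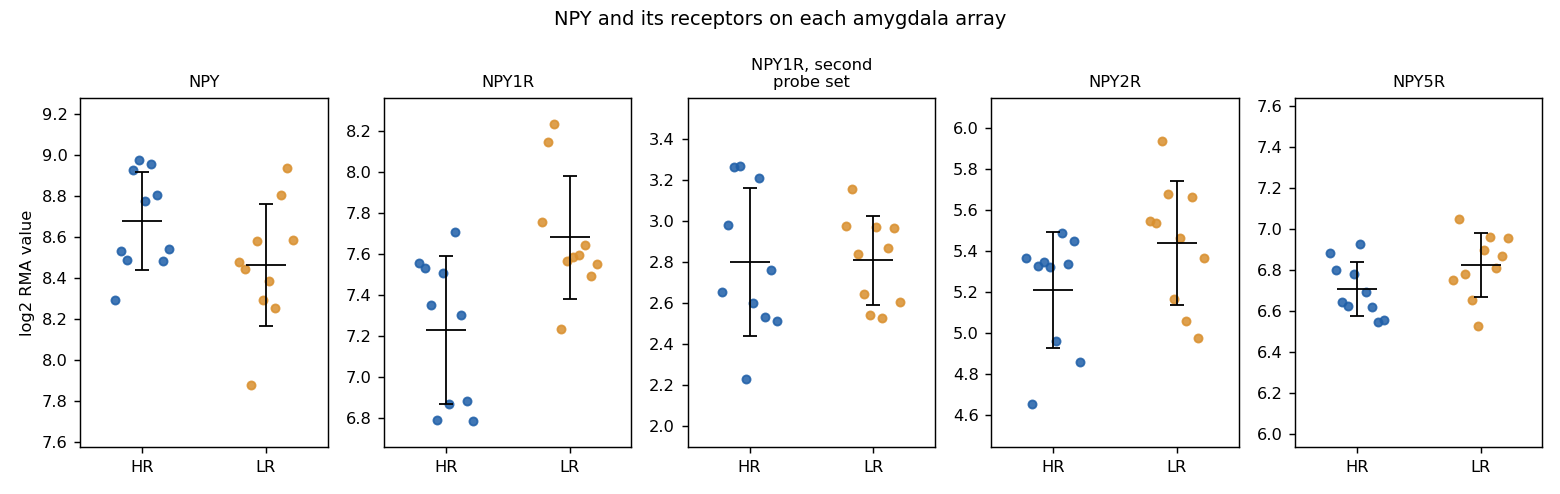
Log2 RMA values (vertical axis, each panel spanning 1.7 log2 units) of the 5 member probe sets in the HR and LR amygdala. Points are arrays (n = 10 per group), horizontal bars are group means and whiskers are SDs. In NPY1R, 4 HR arrays lay between 6.79 and 6.89, below all LR arrays. The second NPY1R probe set lay below the mean background on all 20 arrays.

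The ligand NPY was measured by 1 probe set (SNOWBALL_019843_st), which was above all 69 background probe sets on average. In HR its values ran from 8.29 in HR replicate 1 through a median of 8.66 to 8.98 in HR replicate 5. In LR they ran from 7.88 in LR replicate 3 through a median of 8.46 to 8.93 in LR replicate 9. The groups overlapped over most of their range, with 9 of 10 HR arrays above the LR median and 2 of 10 above the highest LR array. The means were 8.68 ± 0.24 in HR and 8.46 ± 0.30 in LR (SD, n = 10 each). The difference was 0.21 ± 0.12 (SE), a fold of 1.16 with a 95% confidence interval of 0.983 to 1.37, and it did not pass the limma test (p = 0.0767, adjusted p = 0.222). Without LR replicate 3, where NPY was lowest, the difference was 0.15, and with the array background as a covariate it was 0.08 ± 0.11 (SE).

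NPY1R was measured by 2 probe sets. In the brighter one (SNOWBALL_011570_st), HR values ran from 6.79 in HR replicate 10 through a median of 7.33 to 7.71 in HR replicate 7. LR values ran from 7.24 in LR replicate 4 through a median of 7.59 to 8.24 in LR replicate 3. The groups overlapped in the middle, with 9 of 10 HR arrays below the LR median, 4 of 10 below the lowest LR array and 3 of 10 LR arrays above the highest HR array. NPY1R averaged 7.23 ± 0.36 in HR and 7.68 ± 0.30 in LR (SD, n = 10 each). The difference was -0.45 ± 0.14 (SE), so that LR exceeded HR by a fold of 1.37 with a 95% confidence interval of 1.12 to 1.67. It had an unadjusted limma p of 0.00341 and an adjusted p of 0.157, and 464 probe sets of the array had a smaller p. The mean level of this probe set was above 57 of the 69 background probe sets.

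The HR values of this receptor left a gap between 6.89 and 7.30. HR replicates 4, 6, 9 and 10 held values of 6.80, 6.87, 6.89 and 6.79, and the other 6 HR arrays were at 7.30 or above. These same 4 arrays had the highest background of all 20, at 4.37, 4.31, 4.34 and 4.34, against at most 4.25 on any other array. When the 4 arrays of highest background were left out, a choice made after seeing the data, the NPY1R difference was -0.19 ± 0.13 (SE) with an unadjusted limma p of 0.152 over 6 HR and 10 LR arrays. With the background as a covariate over all arrays it was -0.21 ± 0.10 (SE), with an unadjusted limma p of 0.0520.

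The dimmer NPY1R probe set (SNOWBALL_037713_st) lay below the mean background of its own array on 20 of 20 arrays and did not pass the filter, so it says nothing on the difference in the brighter one. Its means were 2.80 ± 0.36 in HR and 2.81 ± 0.22 in LR (SD, n = 10 each), a difference of -0.01 ± 0.13 (SE) when the filter was dropped. Over the 20 arrays it correlated with the brighter probe set at r = 0.184.

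NPY2R was measured by 1 probe set (SNOWBALL_011483_st) that lay just inside the filter, with a mean over all arrays of 5.32 against a minimum of 5.18 and above 42 of the 69 background probe sets. HR values ran from 4.65 in HR replicate 2 through a median of 5.33 to 5.49 in HR replicate 7, and LR values from 4.97 in LR replicate 9 through a median of 5.50 to 5.94 in LR replicate 3. All 10 HR arrays were below the LR median and 5 of 10 LR arrays were above the highest HR array. The means of 5.21 ± 0.28 in HR and 5.44 ± 0.30 in LR (SD, n = 10 each) differed by -0.23 ± 0.12 (SE), a fold of 1.17 of LR over HR with a 95% confidence interval of 0.981 to 1.40. This did not pass the limma test (p = 0.0775, adjusted p = 0.223). The difference was -0.15 ± 0.13 (SE) with the background as a covariate.

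NPY5R, also on 1 probe set (SNOWBALL_011494_st), was the member that varied least among pigs, with a range of 0.52 over all 20 arrays, and its mean was above 48 of the 69 background probe sets. In HR it ran from 6.55 in HR replicate 9 through a median of 6.67 to 6.93 in HR replicate 6, and in LR from 6.53 in LR replicate 5 through a median of 6.84 to 7.05 in LR replicate 2. The HR values lay inside the range of LR, and 8 of 10 were below the LR median. The means were 6.71 ± 0.13 in HR and 6.83 ± 0.16 in LR (SD, n = 10 each). The difference of -0.12 ± 0.07 (SE), a fold of 1.09 of LR over HR with a 95% confidence interval of 0.980 to 1.20, did not pass the limma test (p = 0.112, adjusted p = 0.259). It was -0.08 ± 0.08 (SE) with the background as a covariate.

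**Figure D2:**
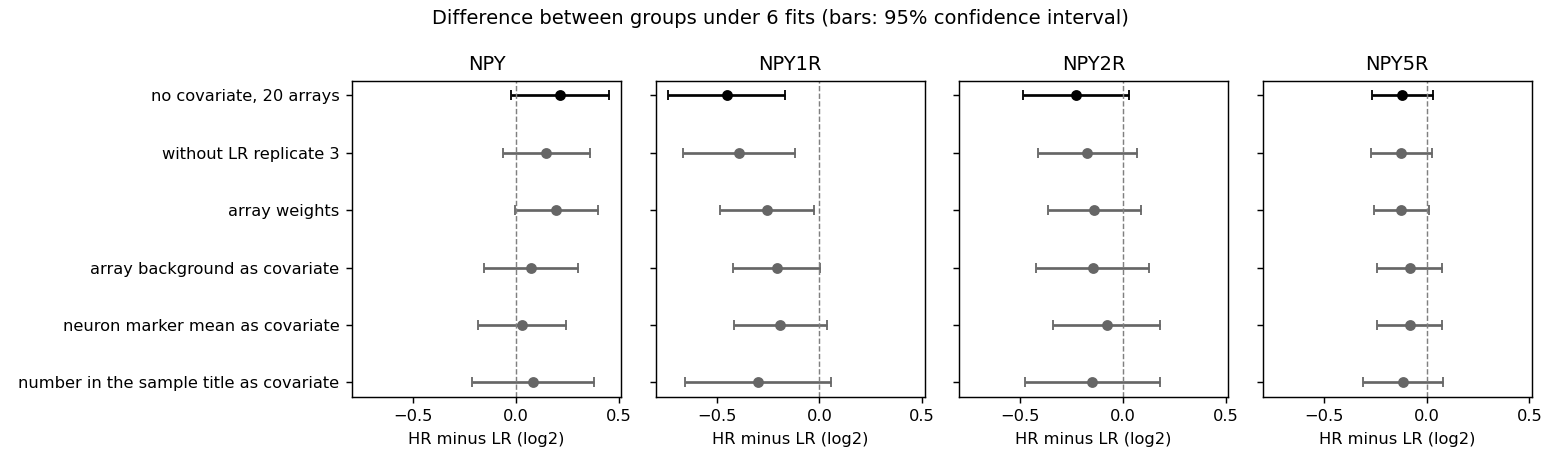
HR minus LR difference in log2 units (horizontal axis) of NPY and its receptors under 6 limma fits (rows). Points are estimates and bars are 95% confidence intervals. The estimate of NPY stayed above 0 and those of the receptors below 0 in each of these fits. The intervals of NPY, NPY2R and NPY5R included 0 in all of them. That of NPY1R included 0 with the array background, the neuron marker mean or the number in the sample title as a covariate. The NPY1R estimate moved from -0.45 without a covariate to -0.21 with the array background and -0.19 with the neuron marker mean.

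Whether the members differed from one another in their group difference was tested on the difference of 2 members within each array, over 6 pairs, by 2-sided permutation. NPY minus NPY1R was higher in HR than in LR by 0.67 ± 0.21 (SE), with 9 of 10 HR arrays above the LR median (permutation p = 0.00465, adjusted p = 0.0279 over the pairs). NPY minus NPY2R was higher by 0.44 and NPY minus NPY5R by 0.33, both with an adjusted permutation p of 0.0402. Among the receptors, NPY1R minus NPY5R was lower in HR by a difference of -0.33 (adjusted permutation p = 0.0402), and NPY1R minus NPY2R (-0.22) and NPY2R minus NPY5R (-0.11) did not pass. How many other gene pairs of the array would pass the same test was not computed. At an unadjusted limma p under 0.05, 2939 of all tested probe sets were higher and 3344 lower in HR. The contrasts are therefore not shown to be particular to NPY and its receptors.

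These contrasts between members were near their threshold and moved with the array background. Residuals were taken from a fit of each gene on the background alone, without a group term. The background averaged 4.21 in HR and 4.08 in LR, so part of a group difference was removed with it. The limma fits with the background as a covariate kept a group term. On residuals from the background, the 4 differences that had passed were 0.23, 0.18, 0.13 and -0.10, with adjusted permutation p-values of 0.411 for NPY minus NPY1R and 0.473 for the other 3. Without LR replicate 3 they were 0.54, 0.32, 0.27 and -0.27, with adjusted p-values of 0.0595 for the first and 0.0812 for the other 3. The first was also lost when LR replicate 2 or HR replicate 4, 6, 8 or 10 was left out, with differences from 0.59 to 0.66. The part of the background in these contrasts was not tested beyond these residuals.

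Across the 20 arrays, NPY1R fell as the array background rose, with Pearson r = -0.829 (permutation p = 3e-05, adjusted p = 0.0003 over 10 relations) and Spearman rho = -0.693 (permutation p = 0.00098, adjusted p = 0.0098). The relation was -0.900 within HR and -0.687 within LR, and -0.746 once the 2 arrays with the most extreme background (LR replicate 3 and HR replicate 4) were left out. Without LR replicate 3 alone, r was -0.790 over all other arrays but -0.331 within LR. NPY moved the other way, with r = 0.624 (permutation p = 0.00333, adjusted p = 0.0167) and rho = 0.538 (permutation p = 0.0156, adjusted p = 0.0557). Over all arrays this was weaker without the extreme ones, with r = 0.302 without the same 2 arrays. Without LR replicate 3 alone, r was 0.394 and rho 0.461 (permutation p of rho = 0.0467, adjusted p = 0.104). Within HR, r was 0.150, and within LR it was 0.825, or 0.62 without LR replicate 3. For NPY2R (r = -0.415, rho = -0.260) and NPY5R (r = -0.393, rho = -0.460) the adjusted permutation p of r was 0.116 and 0.122.

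**Figure D3:**
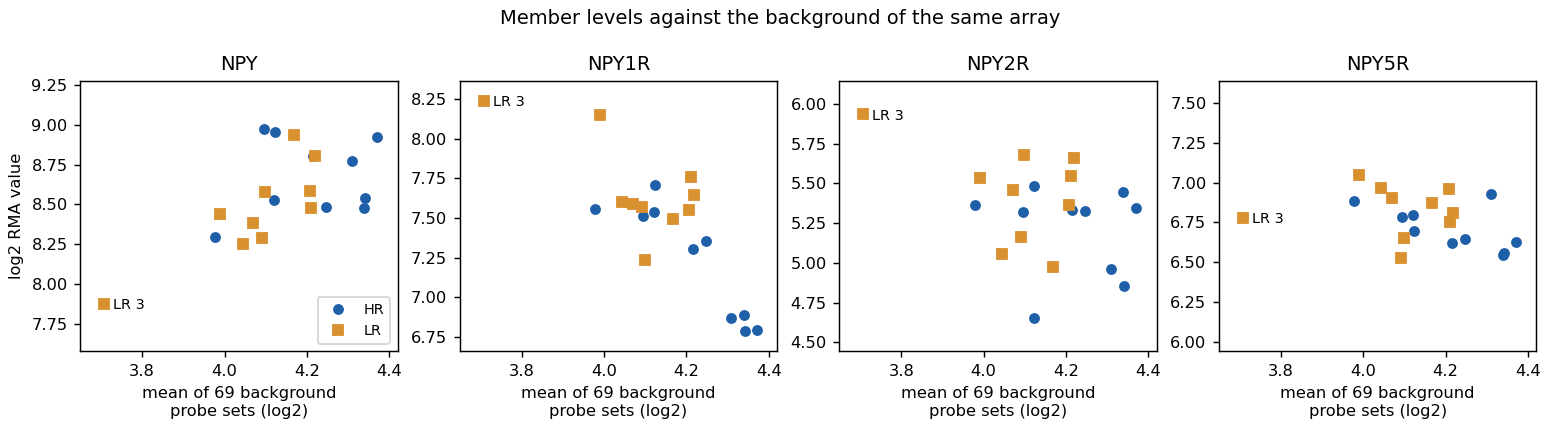
Log2 RMA values (vertical axes, each spanning 1.7 log2 units) of NPY and its receptors against the mean log2 value of the 69 background probe sets of the same array (horizontal axis). Circles are HR and squares LR arrays, with LR replicate 3 marked. The 4 HR arrays with a background of at least 4.31 are the 4 lowest in NPY1R, and the NPY, NPY1R and NPY2R panels show LR replicate 3 at an extreme of both axes.

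No pair of members rose and fell together beyond the correction. NPY1R and NPY5R, which lie side by side in the RefSeq annotation of Sscrofa11.1, had r = 0.495 (permutation p = 0.0266, adjusted p = 0.0888) and rho = 0.429, with 0.387 within HR and 0.332 within LR, and 0.358 without HR replicates 4 and 10. NPY1R and NPY2R had r = 0.458 (permutation p = 0.0416, adjusted p = 0.104) and rho = 0.532. NPY and NPY1R had r = -0.429 (permutation p = 0.0593, adjusted p = 0.116) over all arrays but 0.02 within HR and -0.571 within LR. Without LR replicate 3, their r was -0.226 over all other arrays and -0.219 within LR. The spread of the members did not separate the groups either: the mean absolute deviation of NPY1R was 0.302 in HR and 0.194 in LR, with an adjusted permutation p of 0.978 for each of the 4 genes.

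Among the genes next to NPY1R and NPY5R, NAF1, needed for assembling the telomerase ribonucleoprotein and related particles, differed by -0.01, TKTL2, a transketolase-like enzyme, by 0.12 and FSTL5, a secreted follistatin-like protein, by -0.32 (unadjusted limma p = 0.0962). Beside NPY, MPP6 differed by -0.24, DFNA5 by -0.15, OSBPL3 by -0.02 and UPP1, a uridine phosphorylase, by 0.27, and near NPY2R, FRAS1 differed by -0.11. None of the tested neighbours within 3 genes of a member, other than NPY1R itself, had an unadjusted p under 0.05.

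The genes whose levels across pigs were most like those of NPY included GABAergic interneuron genes. After group means and array background were removed from 10307 tested genes, the 5 most like NPY were SCD5, PRPF4, NOS1, MTMR3 and DLX2, with r from 0.812 to 0.843 over 20 arrays, against a median r of 0.127 over the other 10306 genes. NOS1, the neuronal nitric oxide synthase made by a class of NPY interneurons, had r = 0.820 (plain r = 0.806), and DLX2, a transcription factor of GABAergic neuron development, had r = 0.812 (plain r = 0.849). The plain r was 0.779 for SCD5, 0.769 for MTMR3 and 0.293 for PRPF4, beside a median plain r of 0.260. SST, the somatostatin gene, which many NPY interneurons also express, had r = 0.562 (plain r = 0.632) and ranked at 527. These are descriptions over points that share arrays and background, and no test was applied.

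The other tested genes of NPY-making interneurons spread widely in likeness to NPY. TACR1, the substance P receptor, ranked at 259 with r = 0.620 (plain r = 0.0841) and RELN, which encodes the secreted protein reelin, at 341 with r = 0.602 (plain r = 0.179), both before SST, while LHX6 and SATB1, transcription factors of interneurons derived from the medial ganglionic eminence, were at 0.0745 and 0.0649, and DLX1, SLC32A1, GAD2 and CHODL lay between 0.289 and 0.439. Between the groups NOS1 and DLX2 differed by 0.08 each, with unadjusted limma p-values of 0.426 and 0.334.

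The genes most like the receptors were of other kinds. For NPY1R they were AP1G1, C9orf80, RCOR3, HECA and RGS6, with r from 0.830 to 0.848, and among them AP1G1, a subunit of a clathrin adaptor, and RGS6, a regulator of G protein signaling, had a plain r of 0.951 and 0.949. For NPY2R, ADAM22, a neuronal membrane protein that binds LGI1, led with r = 0.854, followed by THOC7 (0.782), NR3C1, the glucocorticoid receptor (0.756, plain r = 0.738), LIN54 (0.747) and ERCC8 (0.746). For NPY5R, LIMD2 and MIF, a macrophage cytokine, had r = 0.801 and 0.786, while their plain r was 0.407 and -0.00178, and LOC100525311, CLPTM1L and LOC100525442 had r from 0.770 to 0.783. The plain r was 0.79 for LOC100525311, 0.172 for CLPTM1L and 0.173 for LOC100525442.

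Of the other genes of the NPY family, 2 were annotated on the array. PPY, pancreatic polypeptide, averaged 5.98 ± 0.21 in HR and 5.81 ± 0.19 in LR (SD, n = 10 each), a difference of 0.17 ± 0.09 (SE, unadjusted limma p = 0.0701). PPYR1, the older symbol of the pancreatic polypeptide receptor NPY4R, had a mean of 4.15 and did not pass the filter. Of the genes that make and break down the peptide, 5 of 6 annotated ones were tested. PCSK1N, an inhibitor of prohormone convertase, was higher in HR by 0.25 ± 0.09 (SE, unadjusted limma p = 0.00881, adjusted p = 0.157), also on its second probe set (0.29). CPE, the carboxypeptidase that trims prohormones, was lower at a difference of -0.14 ± 0.06 (SE, unadjusted limma p = 0.0367). PCSK2, the convertase (0.05), SCG5, its chaperone (0.10), and DPP4, a peptidase that trims NPY (0.03), had an unadjusted p above 0.05. Here and in the lists that follow, no gene passed the adjusted threshold, so differences with an unadjusted p under 0.05 are descriptions read against the 26.3% of all probe sets.

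In the signaling machinery that NPY receptors use, 18 of 19 annotated genes were tested, and 4 were higher and 4 lower in HR at an unadjusted p under 0.05. The median difference of the list was 0.10, beside 0.05 over all probe sets. ARRB2, a beta-arrestin that uncouples activated receptors, was higher by 0.36 ± 0.10 (SE, unadjusted limma p = 0.00203), with 0.29 and 0.23 on its other probe sets, and GNAZ, an inhibitory G protein subunit, was higher by 0.22. RGS7 and RGS4, which speed the shut-off of inhibitory G proteins, differed by -0.41 and -0.36, and KCNJ3, a subunit of the potassium channel that these G proteins open, by -0.23. GNAO1, an abundant neuronal inhibitory G protein, averaged 11.10 in both groups, a difference of 0.01.

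Of 12 annotated genes of NPY-making interneurons, 10 were tested, with 0 higher and 2 lower in HR at an unadjusted p under 0.05 and a median difference of -0.04. GAD2, a GABA-synthesising enzyme, differed by -0.36 ± 0.16 (SE, unadjusted limma p = 0.0372) and TACR1 by -0.21 ± 0.10 (SE, unadjusted limma p = 0.0417). SST averaged 11.48 ± 0.20 in HR and 11.33 ± 0.16 in LR (SD, n = 10 each), a difference of 0.15 ± 0.08 (SE, unadjusted limma p = 0.0866). SATB1 differed by -0.26 (unadjusted limma p = 0.0585).

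Of the factors known to act on the NPY gene, 6 of 8 annotated ones were tested, and 5 were lower and 0 higher in HR at an unadjusted p under 0.05, with a median difference of -0.25. They were NTRK2, the receptor for brain-derived neurotrophic factor (-0.25 ± 0.10, SE), INSR, the insulin receptor (-0.26 ± 0.11, SE), the cAMP-responsive factor CREB1 (-0.26 ± 0.12, SE), NR3C1 (-0.30 ± 0.14, SE) and REST, a repressor of neuronal genes (-0.14 ± 0.07, SE). CREM, a factor related to CREB1, differed by 0.04 on its brightest probe set, and BDNF and LEPR did not pass the filter. The other tested CREM probe sets differed by 0.06, -0.20 and -0.34, with an unadjusted limma p of 0.00601 for the last. The dimmest tested probe set of NTRK2 differed by -0.04, and those between it and the brightest by -0.63 to -0.39. The mean of this list had r = -0.780 with the array background, whose part in the differences was not tested.

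Among 8 tested stress peptides and receptors, 2 were higher and 0 lower in HR at an unadjusted p under 0.05. CRHR1 and CRHR2, the receptors of corticotropin-releasing hormone, were higher by 0.22 ± 0.08 (SE, unadjusted limma p = 0.0146) and 0.40 ± 0.12 (SE, unadjusted limma p = 0.00380). The dimmest tested probe set of CRHR1 differed by 0.07 and the second of CRHR2 by 0.09, and CRH itself by 0.15 ± 0.09 (SE, unadjusted limma p = 0.123). The other 5, UCN3, GALR2, NTS, PDYN and PNOC, differed by -0.31 (NTS) to 0.14 (PNOC), with unadjusted limma p-values from 0.188 to 0.620. The mean of this list had r = 0.649 with the array background.

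**Figure D4:**
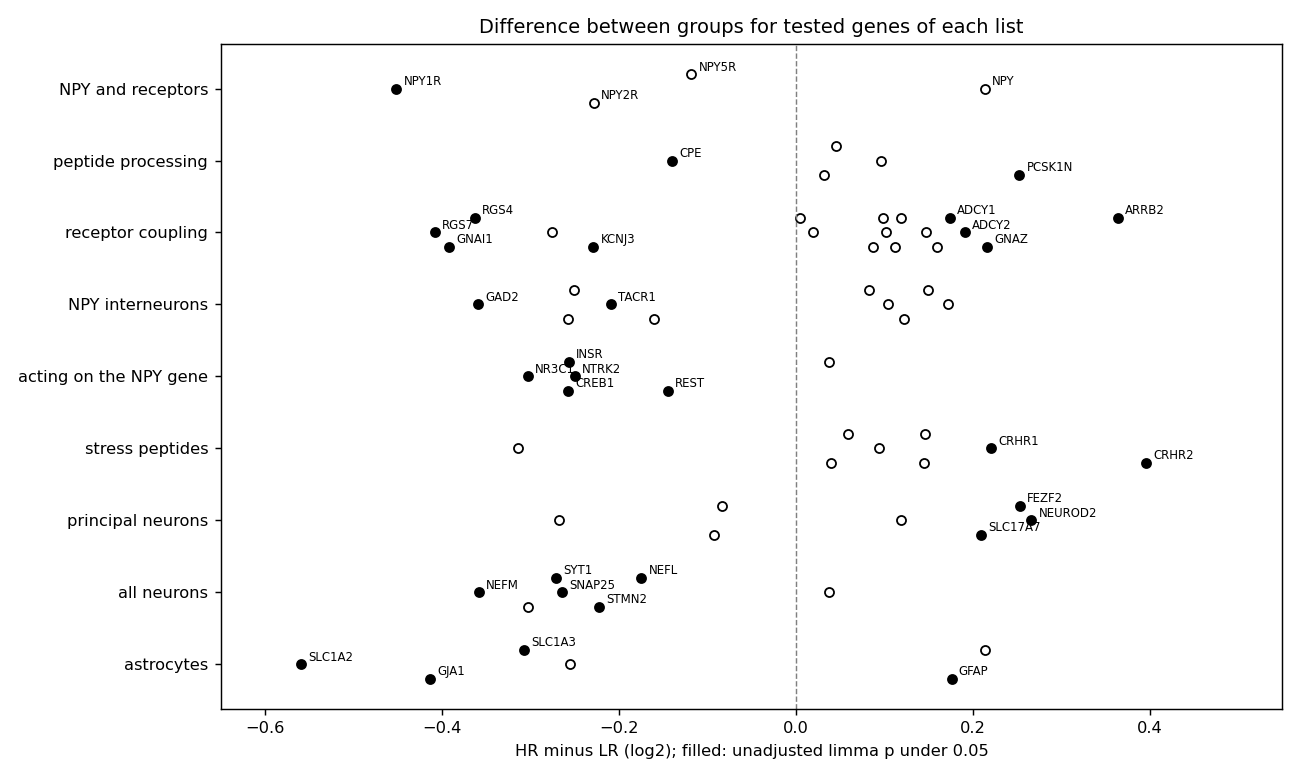
HR minus LR difference in log2 units (horizontal axis) of the tested genes of each list (rows), with NPY and its receptors on top. Each point is the brightest probe set of a gene, and points that are filled had an unadjusted limma p under 0.05. NPY1R lies at -0.45, left of the 5 named genes acting on the NPY gene (-0.30 to -0.14), and CRHR2 at 0.40 is the rightmost named gene of the stress peptides.

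Neuron markers were examined beside the members. Of 7 tested markers of all neurons, 5 were lower and 0 higher in HR at an unadjusted p under 0.05, with a median difference of -0.26, and RBFOX3 differed by 0.04. None passed the adjusted threshold. Their mean was 10.19 ± 0.17 (SD, n = 10) in HR, with a range of 9.88 to 10.48, and 10.41 ± 0.25 (SD, n = 10) in LR, with a range of 10.07 to 10.98, and it had r = -0.910 with the array background. With this mean as a covariate, the difference was -0.19 ± 0.11 (SE) for NPY1R, -0.08 ± 0.12 (SE) for NPY2R, -0.08 ± 0.08 (SE) for NPY5R and 0.03 ± 0.10 (SE) for NPY. Astrocyte markers also held 3 of 6 genes lower and 1 higher. Of 7 markers of principal neurons, 3 were higher and 0 lower in HR at an unadjusted p under 0.05, and over all 7 the mean in HR was higher for 4 and lower for 3. Those of central amygdala and striatal neurons did not differ at this level in either direction on their brightest probe sets (0 of 6 tested). Among them, FOXP1 differed by -0.11 on its brightest probe set and by -0.49, -0.21, 0.05 and 0.13 on its other tested ones. The unadjusted limma p was 0.00577 at -0.49 and 0.0386 at -0.21.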

How the data were processed

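Total RNA from 20 amygdalae was amplified as cDNA, which was fragmented, labelled with biotin and hybridised to Affymetrix Snowball arrays, per the study's methods. The authors scanned them with GCOS 1.1.1, per the submitters' processing notes, and deposited log2 values. Per the study's methods, the values had been normalized by RMA, a method that corrects the background, normalizes arrays by quantiles and summarises probes. Samples were grouped by the coping pattern in the labels, and replicate numbers follow deposition order. The table was not filtered for detection. The 23860 probe sets that were not among 123 array controls and had a mean of at least the median of probe set means (5.18) were tested 2-sided, without covariates, by lmFit and eBayes of limma 3.58.1 (R 4.3.3). The array annotation, some of it outdated, supplied the gene symbols and gave none for 21419 probe sets. The probe set with the highest mean stood for a gene. Precision was limited by the number of arrays. Within-array differences between members, their spread within groups and correlations were tested with 100000 permutations, 2-sided, in Python 3.11.15. The fit was tested on simulated data with known changes. The 4 genes and the lists were chosen with earlier results of these data known, and probe sets were then matched to them by symbol alone. Every probe set of the members was named. Genes that could be named beside them were those of lists of up to 9 genes on the array, in longer lists the 4 genes of smallest p and some defining genes, the 5 genes most like each member and 3 RefSeq neighbours on each side. NOS1 and the ranks of the interneuron genes in likeness to NPY were looked at after the data were seen. Alternatives were other filters, normalizations, variance models, array weights, covariates and left-out arrays.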

Additional observations from a re-analysis of the deposited data

Results flagged for a closer look

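Within groups of 10 arrays, 14 values lay farther from their nearest neighbour than Dixon's 95% limit allows, among 110 groups of values examined, where chance gives about 1 in 20. Of these 14, 9 came from LR replicate 3, the array with the lowest background mean (3.71). On it, NPY minus NPY2R was 1.94, the only one of the member values and contrasts this far out, and the other genes were CPE at 13.01, PCSK1N at 9.74, CRHR1 at 7.89, CREB1 at 8.09, NR3C1 at 7.78, FSTL5 at 8.85 and MPP6 at 7.96. The remaining values were PPYR1 at 4.61 in HR replicate 4, DFNA5 at 5.60 in HR replicate 4, SCG5 at 9.65 in HR replicate 6, NTS at 3.81 in HR replicate 5 and SST at 11.69 in LR replicate 9. No single member probe set had such a value.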

How the results depend on the processing

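Of 554 values recomputed under alternatives, 451 kept both their direction and their side of the threshold or, for counts, stayed within 1.5 times. A difference that had not passed could shrink and still count as kept. That of NPY did so, from 0.21 to 0.03 with the neuron marker mean as a covariate. No member passed an adjusted p of 0.05 under any limma fit, where the lowest adjusted p was 0.119 for NPY, 0.101 for NPY1R, 0.125 for NPY2R and 0.171 for NPY5R. NPY2R could not be tested with a mean of at least 6. The count of probe sets past the adjusted threshold was 2 and became 1 with no filter, with a mean of at least 6, with the background or the neuron marker mean as a covariate and without the 4 arrays of highest background, 5 with array weights, 0 with the number in the sample title, whose meaning the labels do not give, as a covariate and 0 to 7 when single arrays were left out. The count at an unadjusted p under 0.05 was 6283 and became 3757 with array weights, 1018 with the background, 889 with the neuron mean, 932 with the title number, 1134 without the 4 arrays and 4320 to 7812 when single arrays were left out. The member count of 1 became 0 with each of the 3 covariates and without the 4 arrays, and 1 to 3 when single arrays were left out (2 without LR replicate 5, 7 or 8 or HR replicate 1, and 3 without LR replicate 9). Array weights gave an NPY1R difference of -0.25 and the title number -0.30. In every HR pig but that of HR replicate 1, the title number was above that of all LR pigs. As a covariate it can therefore hardly be told apart from the group. Leaving out single arrays gave 0.15 to 0.27 for NPY, -0.50 to -0.39 for NPY1R, -0.28 to -0.17 for NPY2R and -0.15 to -0.09 for NPY5R. The cause of these shifts was not tested.

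Of the contrasts between members, left-out arrays, a choice made after seeing the data for all but LR replicate 3, gave 0.54 to 0.74 for NPY minus NPY1R, 0.32 to 0.55 for NPY minus NPY2R, 0.27 to 0.39 for NPY minus NPY5R, -0.32 to -0.16 for NPY1R minus NPY2R, -0.39 to -0.27 for NPY1R minus NPY5R and -0.17 to -0.04 for NPY2R minus NPY5R. NPY minus NPY2R kept an adjusted p under 0.05 only without HR replicate 1, 3 or 9 or LR replicate 9 or 10, NPY minus NPY5R only without HR replicate 1, 2 or 3 or LR replicate 4, 8, 9 or 10, and NPY1R minus NPY5R only without HR replicate 1, 2, 3 or 7 or LR replicate 4, 9 or 10. On residuals from the background, taken without a group term, the contrasts that had passed were 0.23, 0.18, 0.13 and -0.10. The difference in spread changed sign for NPY without LR replicate 3 (0.0413), and on residuals for NPY (0.0598), NPY1R (-0.0671) and NPY2R (0.00926). Correlations on residuals changed sign for NPY with NPY1R (0.203), NPY2R (0.0280) and NPY5R (0.197). When single arrays were left out, r ranged from -0.509 to -0.226 for NPY with NPY1R, -0.310 to 0.0422 for NPY with NPY2R, -0.208 to -0.0275 for NPY with NPY5R, 0.307 to 0.563 for NPY1R with NPY2R, 0.386 to 0.637 for NPY1R with NPY5R, -0.136 to 0.0661 for NPY2R with NPY5R, and for the background from 0.394 to 0.694 with NPY, -0.865 to -0.790 with NPY1R, -0.508 to -0.152 with NPY2R and -0.514 to -0.327 with NPY5R. NPY1R with NPY5R passed the correction without LR replicate 5 (0.559) or HR replicate 6 (0.637), and NPY1R with NPY2R without HR replicate 2 (0.563). No paired analysis was possible because the labels carry no replicate numbers shared by the groups.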
